A study of Saccharomyces cerevisiae with 4 samples.

Results

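The high osmolarity glycerol (HOG) pathway of the budding yeast Saccharomyces cerevisiae was examined at the level of the transcripts of its own sensors and kinases. The 10 genes were SLN1, YPD1, SSK1, SSK2, SSK22, SHO1, MSB2, HKR1, PBS2 and HOG1, chosen by their place in the pathway, and the rule uses no measured value. All array spots that the platform's gene annotation assigns to these symbols were taken, which gave 20 of 12800 spots and 10 of 5539 named genes. Each gene was printed as a pair of spots. The strain was BY4741, a haploid of mating type a derived from the reference strain, and it lacks HIS3, LEU2, MET17 and URA3, so treated and untreated cells shared these deletions. A culture in rich medium at 24 °C was split, and only the treated portion received Congo red at 30 µg/ml for 2 h. The labels do not say whether this was done once or for each array. Congo red binds polysaccharides of the cell wall and disturbs wall assembly. Transcripts were compared on 4 2-colour arrays, each holding treated and untreated RNA, and channel 2 carried the treated RNA on arrays 1 and 3, while channel 1 carried it on the other arrays.

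The HOG pathway carries the signal of high external osmolarity to the MAP kinase Hog1 through 2 branches that meet at the kinase Pbs2. In the Sln1 branch the histidine kinase Sln1 passes phosphate through Ypd1 to the response regulator Ssk1, and loss of that phosphate lets Ssk1 switch on the kinases Ssk2 and Ssk22. In the Sho1 branch the mucin-like membrane proteins Msb2 and Hkr1 act with the membrane protein Sho1 and the kinase Ste11. The pathway is known above all for driving glycerol synthesis under salt or sugar stress, and the Sho1 branch is also known to take part in signalling after enzymatic damage to the yeast wall. Its components act mainly by phosphorylation, which transcript ratios do not measure.

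All values below are log2 ratios per gene with the median of each array set to 0, read as Congo red over untreated. The direction of the deposited ratios is likely but not settled. Arrays with the treated RNA in different channels had a mean Pearson's r of -0.04 over all genes, too near 0 to settle it. By the same measure arrays 1 and 3 correlated at 0.30 and arrays 2 and 4 at 0.08. Spearman's rho was 0.60 for arrays 1 and 3, 0.20 for arrays 2 and 4, and from -0.12 to -0.06 between the channel assignments. The sign was read from marker genes of the cell wall stress kinase Slt2, whose 7 tested members were above 0 on all 4 arrays. If the direction were turned on all 4 arrays, every sign below would turn with it. If the ratios ran by channel instead, only the arrays of 1 channel assignment would turn, and the means and differences would change. The 7 markers would then lie above 0 on the arrays of 1 assignment and below 0 on the others. Nothing in the labels says that the arrays came from separate cultures. The p-values therefore describe the spread of these 4 arrays alone, which may be technical, and their small number limits the precision. Ratios hold no level, so neither the strain's deletions nor the abundance of any transcript could be checked, and in whole cultures a change in the share of cells and a change in RNA per cell cannot be told apart.

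None of the 10 genes passed the limma threshold (adjusted p under 0.05 over 5489 genes), which 0.0911% of all tested genes passed. The largest ratios with small spread were those of SSK22 and MSB2, near 1.5-fold, and in the fit to all 4 arrays these were the only 2 of the 10 with a 95% interval above 0. For SSK22 this held in 14 of 15 alternatives, all but the one without centring. For MSB2 it held in 11 of 15, and was lost without centring and when array 1, 3 or 4 was left out. In all, 8 of the 10 means lay above 0, against 48% of all tested genes. The median of the 10 means was 0.25, beside -0.01 over all tested genes, whose middle range from the first to the third quartile ran from -0.20 to 0.22. At an unadjusted limma p under 0.05 stood 2 of the 10, against 7.74% of all tested genes in either direction, 5.37% higher and 2.37% lower. Of the 9 genes with values on every array, 3 were above 0 on all 4 arrays (SSK22, MSB2 and PBS2) and 0 were below 0 on all 4. The shares over all genes with 4 values were 9.54% and 8.65%. Counts over so few genes are a description and carry no test.

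**Figure D1:**
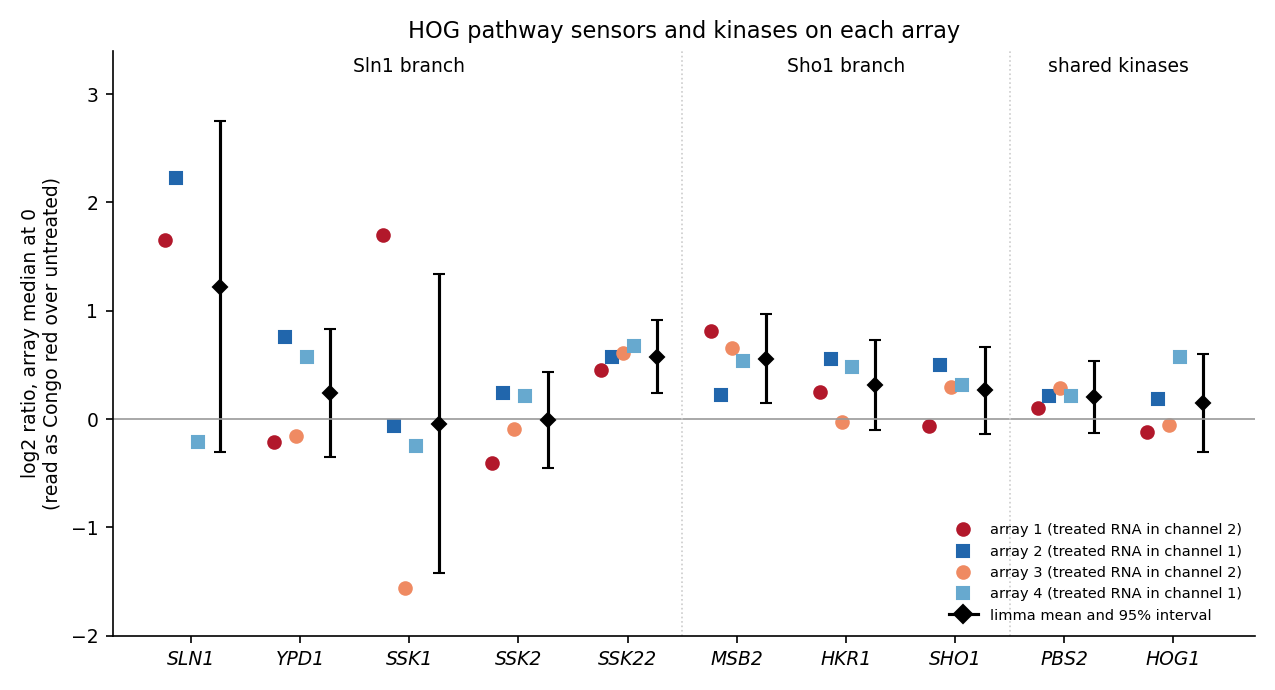
Log2 ratio (relative to the array median, read as Congo red over untreated) of each of the 10 genes on each array, with circles for arrays with treated RNA in channel 2, squares for channel 1, and black diamonds with bars for the limma mean and its 95% interval. SSK22 and MSB2 have intervals above 0, SLN1 and SSK1 have the widest intervals, and SLN1 has no value on array 3.

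In the Sln1 branch, SLN1 (YIL147C), the membrane histidine kinase that senses osmolarity, had the highest mean and one of the widest errors. It was at 1.65 on array 1, 2.23 on array 2 and -0.22 on array 4, and both of its spots were blank on array 3. Arrays 1 and 2 were high and array 4 was slightly below 0, and arrays 1 and 2 have opposite channel assignments. The mean over these 3 arrays was 1.22 ± 0.55 (SE, n = 3) or 2.33-fold, with a 95% interval from -0.31 to 2.75 and a limma adjusted p = 0.68. The value on array 2 came from spots at 3.05 and 1.41, more than 1 log2 unit apart. The mean was 1.69 from the first spot alone and 0.75 from the second, so its size depends on the spot. It was 1.94 without array 4 and 0.72 without array 2, and the 95% interval lay above 0 without array 4, without centring and with the first spot alone.

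YPD1 (YDL235C), the phosphotransfer protein between Sln1 and Ssk1, followed the channel assignment. It was at -0.21 and -0.15 on arrays 1 and 3, but at 0.76 and 0.57 on arrays 2 and 4. The arrays of the 2 channel assignments did not overlap, as for 57.7% of all genes with 4 values. In 29.5% of them arrays 2 and 4 were the higher ones. The mean over all 4 arrays was 0.24 ± 0.23 (SE, n = 4), with a 95% interval from -0.35 to 0.83 (limma adjusted p = 0.78). It was 0.07 without array 2 and 0.39 without array 1. The difference between the channel assignments, treated RNA in channel 2 minus channel 1, was -0.85 ± 0.21 (SE, n = 4) for YPD1 (limma adjusted p = 0.26).

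SSK1 (YLR006C), the response regulator, had an error nearly as wide as that of SLN1. Its gene values were 1.70, -0.06, -1.56 and -0.24 on arrays 1 to 4, and its mean was -0.04 ± 0.53 (SE, n = 4, limma adjusted p = 0.99). The spread came mostly from 1 spot. The first SSK1 spot was at 3.10, -0.62, -3.22 and -0.69, whereas the second was at 0.30, 0.50, 0.09 and 0.20. The second spot was thus above 0 on all 4 arrays, and taken alone it gave 0.27 ± 0.15 (SE, n = 4, limma adjusted p = 0.69). Signal strengths were not used here, so which spot measured SSK1 better was not tested.

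The related kinases SSK2 and SSK22, which both activate Pbs2, had different means, though their 95% intervals overlapped. SSK22 (YCR073C) was at 0.45, 0.57, 0.61 and 0.68 on arrays 1 to 4. It was above 0 on each, and its standard deviation over arrays, 0.094, was lower than that of all but 2.22% of tested genes. The mean was 0.58 ± 0.13 (SE, n = 4) or 1.49-fold, with a 95% interval from 1.18-fold to 1.88-fold, and the limma adjusted p = 0.41 did not pass. Its spots were less even than its gene values, with 0.99 and 0.23 on array 3 and 0.44 and 0.92 on array 4. SSK2 (YNR031C) was at -0.40, 0.24, -0.09 and 0.21, below 0 on arrays 1 and 3 and above 0 on arrays 2 and 4. Its mean was -0.01 ± 0.17 (SE, n = 4, limma adjusted p = 0.99), and the 95% interval ran from 0.731-fold to 1.35-fold. The difference SSK22 minus SSK2 was 0.85, 0.32, 0.70 and 0.46 on arrays 1 to 4, above 0 on each array. This difference was larger on arrays 1 and 3, with treated RNA in channel 2, than on arrays 2 and 4. Its mean was 0.59 ± 0.24 (SD, n = 4), with a two-sided exact sign permutation p = 0.125, the smallest that 4 arrays can give, and 0.38 after adjustment over the 3 pairs compared. Array centring cancels in this difference, and leaving out single arrays moved it between 0.50 and 0.67.

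**Figure D2:**
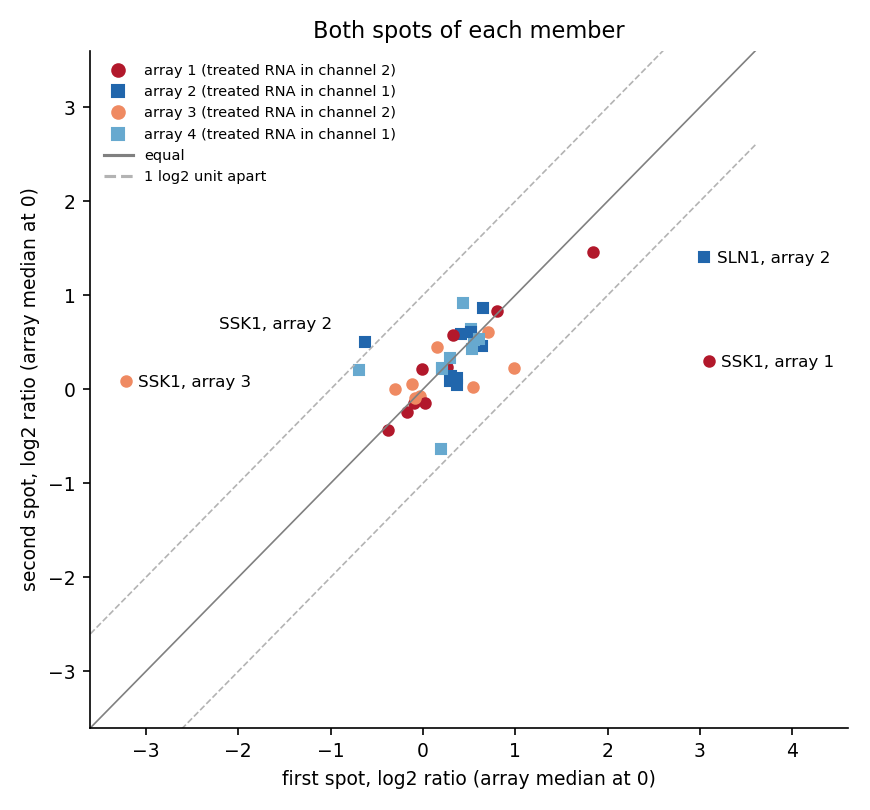
Log2 ratio (array median at 0) of the first spot against the second spot for each of the 10 genes on each array, with a solid line where both are equal and dashed lines 1 log2 unit apart. The labelled points outside the dashed lines are SSK1 on arrays 1, 2 and 3 and SLN1 on array 2.

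The plot of both spots shows that most pairs lay close together. Over the 10 genes, 39 spot pairs had both values, with a median gap of 0.18, and 4 pairs lay more than 1 log2 unit apart, all in SSK1 and SLN1. These 2 genes of 10 compare with 28.4% of all tested genes that had spots so far apart on at least 1 array. In the other 8 genes the largest gap was 0.76, for SSK22 on array 3.

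In the Sho1 branch, MSB2 (YGR014W), a mucin-like membrane protein that also feeds the filamentous growth pathway, had the highest mean. It was at 0.81, 0.22, 0.65 and 0.54 on arrays 1 to 4. All 4 arrays were above 0, with array 2 the lowest. The mean was 0.56 ± 0.16 (SE, n = 4) or 1.47-fold, with a 95% interval from 1.11-fold to 1.95-fold, and the limma adjusted p = 0.56 did not pass. Its spots lay close together, with gaps from 0.026 on array 1 to 0.17 on array 2.

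HKR1 (YDR420W), the other mucin-like sensor, was at 0.25, 0.55, -0.03 and 0.48. Arrays 1, 2 and 4 were above 0 and array 3 lay at about 0. The mean was 0.31 ± 0.16 (SE, n = 4), with a 95% interval from -0.10 to 0.73 (limma adjusted p = 0.70). The difference MSB2 minus HKR1 was 0.56, -0.33, 0.68 and 0.06, so it changed sign on array 2, and arrays 1 and 3 had the larger differences. Its mean of 0.25 ± 0.47 (SD, n = 4) was smaller than its spread over arrays (two-sided exact sign permutation p = 0.375, adjusted p = 0.50 over the 3 pairs).

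SHO1 (YER118C), the membrane protein on which the branch assembles, was at -0.06, 0.50, 0.30 and 0.31. Only array 1 was below 0. The mean was 0.26 ± 0.16 (SE, n = 4), with a 95% interval from -0.13 to 0.66 (limma adjusted p = 0.71). Set against the osmosensor of the other branch, SLN1 minus SHO1 was 1.71, 1.73 and -0.53 on arrays 1, 2 and 4. Its mean of 0.97 ± 1.30 (SD, n = 3) was again smaller than the spread (two-sided exact sign permutation p = 0.50, where 3 arrays allow no p below 0.25, and adjusted p = 0.50).

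The kinases shared by both branches had 95% intervals that included 0 with each array centred on its median. PBS2 (YJL128C), the MAP kinase kinase and scaffold, was at 0.10, 0.21, 0.28 and 0.22, above 0 on each array. Its standard deviation over arrays, 0.076, was lower than that of all but 1.26% of tested genes. The mean was 0.20 ± 0.13 (SE, n = 4), with a 95% interval from 0.915-fold to 1.45-fold (limma adjusted p = 0.73). With centring within runs of 400 spots the PBS2 mean was 0.38, and its 95% interval lay above 0. HOG1 (YLR113W), the MAP kinase itself, was at -0.12, 0.19, -0.05 and 0.58. Arrays 2 and 4 were above arrays 1 and 3 without overlap, as for 29.5% of all genes with 4 values. The mean was 0.15 ± 0.18 (SE, n = 4), with a 95% interval from 0.811-fold to 1.51-fold (limma adjusted p = 0.82). It was 0.0053 without array 4 and 0.24 without array 1. For PBS2 and HOG1, the intervals thus leave out changes of the size seen in the Slt2 markers.

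**Figure D3:**
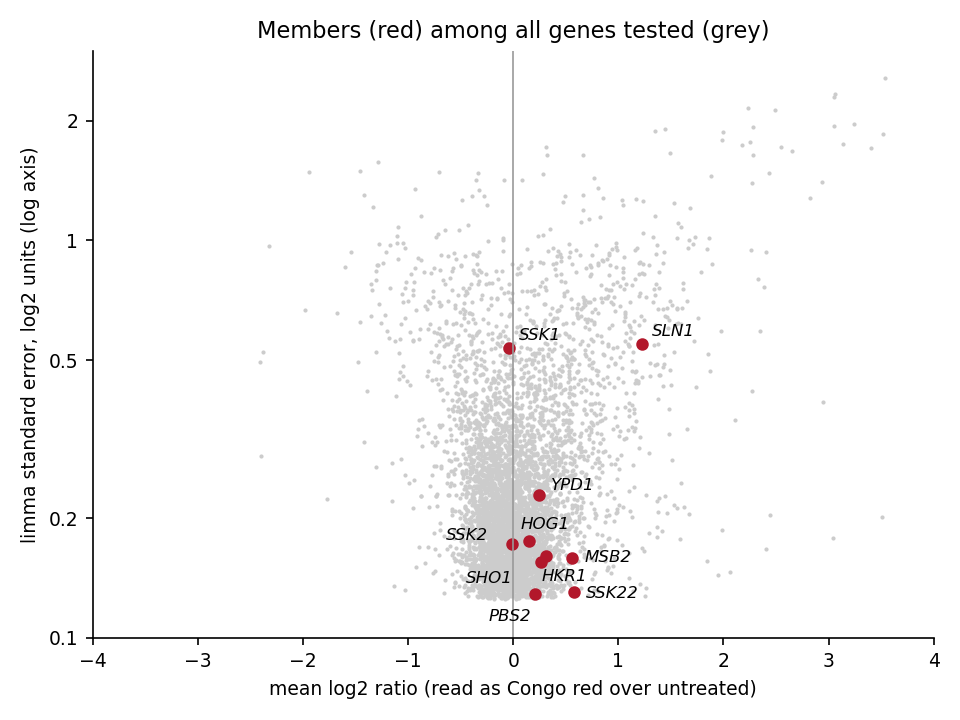
Mean log2 ratio (read as Congo red over untreated) against limma's standard error (log axis) for all 5489 tested genes in grey and the 10 genes in red, with 5 genes outside the axes not drawn. SLN1 lies far to the right with a large error, and SSK22 and MSB2 lie to the right with small errors.

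The descending order of the means was SLN1, SSK22, MSB2, HKR1, SHO1, YPD1, PBS2, HOG1, SSK2 and SSK1. The 95% intervals of neighbours in this order overlapped in 9 of 9 steps. Such overlap is no test of a difference between genes measured on the same arrays. Apart from the pairs compared above, the order was not tested. Among all tested genes the mean of SLN1 was at percentile 97.3, SSK22 at 90.0, MSB2 at 89.6 and HKR1 at 80.7, and SSK1, the lowest of the 10, was at 45.8. The plot of mean against error shows the same placement. The branch medians were 0.24 for the 5 Sln1 branch genes, 0.31 for the 3 Sho1 branch genes and 0.18 for the 2 shared kinases. In the Sho1 branch and the shared kinases all 5 means were above 0, and in the Sln1 branch 3 of 5, against 48% of all tested genes.

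The channel assignment moved with several of these ratios, as it did across the arrays as a whole. Of the 9 genes with 4 values, 6 had arrays 1 and 3 apart from arrays 2 and 4 without overlap, against 57.7% of all such genes. Arrays 2 and 4 were the higher ones in 5 of the 9 (YPD1, SSK2, HKR1, SHO1 and HOG1), against 29.5% of all genes with 4 values. Arrays 1 and 3 were the higher ones in 1 of the 9, MSB2, against 28.2%. The channel term passed the limma threshold for 0 of the 10 genes and for 0% of all tested genes. At an unadjusted limma p under 0.05 it stood for 1 of the 10, YPD1, against 16.6% of all tested genes. SSK22 had means of 0.53 on arrays 1 and 3 and 0.62 on arrays 2 and 4, a difference of -0.09 ± 0.21 (SE). PBS2 was as even, at 0.19 and 0.21. MSB2 was at 0.74 and 0.38, above 0 in both assignments. HKR1 was at 0.11 and 0.51, SHO1 at 0.12 and 0.41, HOG1 at -0.09 and 0.38, and SSK2 at -0.25 and 0.23. By array, the median of the 10 genes was 0.18, 0.37, -0.03 and 0.40 on arrays 1 to 4, so arrays 2 and 4 had the higher medians.

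**Figure D4:**
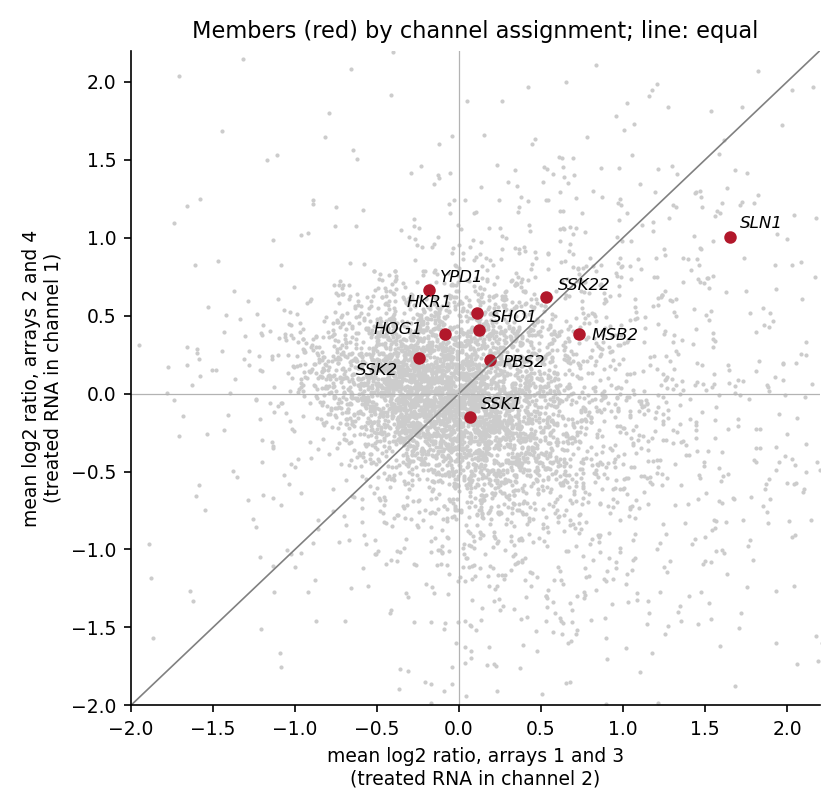
Mean log2 ratio (read as Congo red over untreated) on arrays 1 and 3 (treated RNA in channel 2) against arrays 2 and 4 (channel 1), for tested genes in grey and the 10 genes in red, with a line where both are equal and 183 genes outside the axes not drawn. SSK22 and PBS2 lie close to the line, MSB2, SSK1 and SLN1 below it, and YPD1, HKR1, SHO1, HOG1 and SSK2 above it. SLN1 has no value on array 3, so its horizontal position is that of array 1 alone.

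The gene values most like those of SSK22, the gene with the smallest p of the 10, were found by root mean square distance over the 4 arrays among 5123 other genes. The nearest was EMP47, a lectin-like protein of transport between endoplasmic reticulum and Golgi, at a distance of 0.090 and a mean of 0.54 ± 0.14 (SE, n = 4). SSP120 followed at a distance of 0.10 with a mean of 0.49, and PAU17, of the seripauperin family, at 0.11 with a mean of 0.59. On the chromosomes, no 2 of the 10 genes were neighbours of each other in the R64 RefSeq gene table. Of 18 tested neighbouring genes, 8 had means above 0, against 48% of all tested genes, and the median of the 18 was -0.04. The neighbours of SSK22 were near 0, with RSA4 at 0.03 and SOL2 at -0.04. Those of MSB2 were SNU71 at 0.72 ± 0.29 and EAT1 at -0.29 ± 0.39 (SE). At an unadjusted limma p under 0.05 stood 1 of the 18, against 7.74% of all tested genes in either direction. It was GYP7, beside YPD1, at 0.99 ± 0.21 (SE, n = 4, limma adjusted p = 0.36).

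Genes that connect the Sho1 branch to Pbs2 lay on both sides of 0. Of 12 adaptors and small G protein genes, 0 passed the limma threshold, and the median was 0.07. Here 7 means were above 0 and 5 below, against 48% above 0 among all tested genes. OPY2, the membrane anchor of the adaptor Ste50, was the highest. It was at 0.75, 0.57, 0.59 and 0.27 on arrays 1 to 4, above 0 on each, with a mean of 0.54 ± 0.15 (SE, n = 4, limma adjusted p = 0.55). STE11, the kinase that activates Pbs2 in this branch, was at 0.37 ± 0.15 (limma adjusted p = 0.65). STE20, the kinase upstream of Ste11, was at 0.24 ± 0.19 (limma adjusted p = 0.76), with arrays 1 and 3 at 0.43 and 0.65 and arrays 2 and 4 at about 0 and -0.13.

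Phosphatases that act on Hog1 held the largest ratio among the upstream and regulatory genes. PTP2, a tyrosine phosphatase of Hog1 and Slt2 and itself a known Slt2-dependent gene, was at 1.91, 1.00, 2.17 and 1.29 on arrays 1 to 4. All were above 0, and both arrays with treated RNA in channel 2 were the higher ones, as for 28.2% of all genes with 4 values. The mean was 1.59 ± 0.24 (SE, n = 4), with a limma adjusted p = 0.23 that did not pass. Of the 6 phosphatase list genes, 0 passed, and 2 means were above 0 and 4 below, against 48% above 0 among all tested genes. The list median was -0.07. It ran from -0.19 to 0.33 with single arrays left out and was highest without array 2. PTP3, the relative of PTP2 and singled out after its value was seen, was at 0.07 ± 0.13. The serine/threonine phosphatase genes PTC2 and PTC3 were at -0.26 ± 0.20 and -0.42 ± 0.58, the latter ranging from -2.40 on array 2, where its spots lay 3.62 apart, to 0.94 on array 1.

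Kinases and transcription factors linked to Hog1 lay on both sides of 0. Of 12 tested, 0 passed the limma threshold, with 6 means above 0 and 6 below, against 48% of all tested genes above 0. The median was -0.01. With single arrays left out this median ran from -0.09 to 0.18, the latter without array 2. SKO1, a repressor and activator of osmostress genes under Hog1, was at 0.27 ± 0.14 (SE, n = 4), and RCK2, a kinase phosphorylated by Hog1, was at -0.22 ± 0.17. CIN5, a basic leucine zipper factor, was at 2.67, 1.35, 0.35 and 0.13 on arrays 1 to 4, with a mean of 1.13 ± 0.47, and its spots lay 3.09 apart on array 1 and 2.64 apart on array 4. The limma adjusted p was 0.70, 0.75 and 0.65 for SKO1, RCK2 and CIN5.

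Osmostress genes that depend on Hog1 had a median of 0.19 over 22 tested genes, and 0 passed the limma threshold. Their means were above 0 for 15 and below 0 for 7, against 48% above 0 among all tested genes. HSP12, which encodes a small stress protein at membranes, was at 0.84, 1.39, 1.27 and 1.67, with a mean of 1.29 ± 0.18 (SE, n = 4, limma adjusted p = 0.18). TPS2, of trehalose synthesis, was at 1.10 ± 0.16 (limma adjusted p = 0.21), and CHA1, a deaminase of serine and threonine whose dependence on Hog1 is uncertain, at 0.62 ± 0.16 (limma adjusted p = 0.50). Both lay above 0 on all 4 arrays. These 3 and GPD1, the glycerol 3-phosphate dehydrogenase of glycerol synthesis, singled out after its value was seen, were the 4 of 22 with an unadjusted limma p under 0.05, against 7.74% of all tested genes in either direction and 5.37% higher. Without CHA1 there were 3 of 21, with a list median of 0.17. With single arrays left out, the median of the whole list ran from 0.08 to 0.22. GPD1 was nearly even at 0.35, 0.32, 0.31 and 0.51, with a mean of 0.37 ± 0.13. STL1, a glycerol importer and one of the most strongly Hog1-dependent genes under salt, was singled out likewise, at -0.50, -0.31 and -0.16 on arrays 1, 3 and 4 and a mean of -0.32 ± 0.18 (SE, n = 3). SIP18 had values on 2 arrays only and was not tested.

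**Figure D5:**
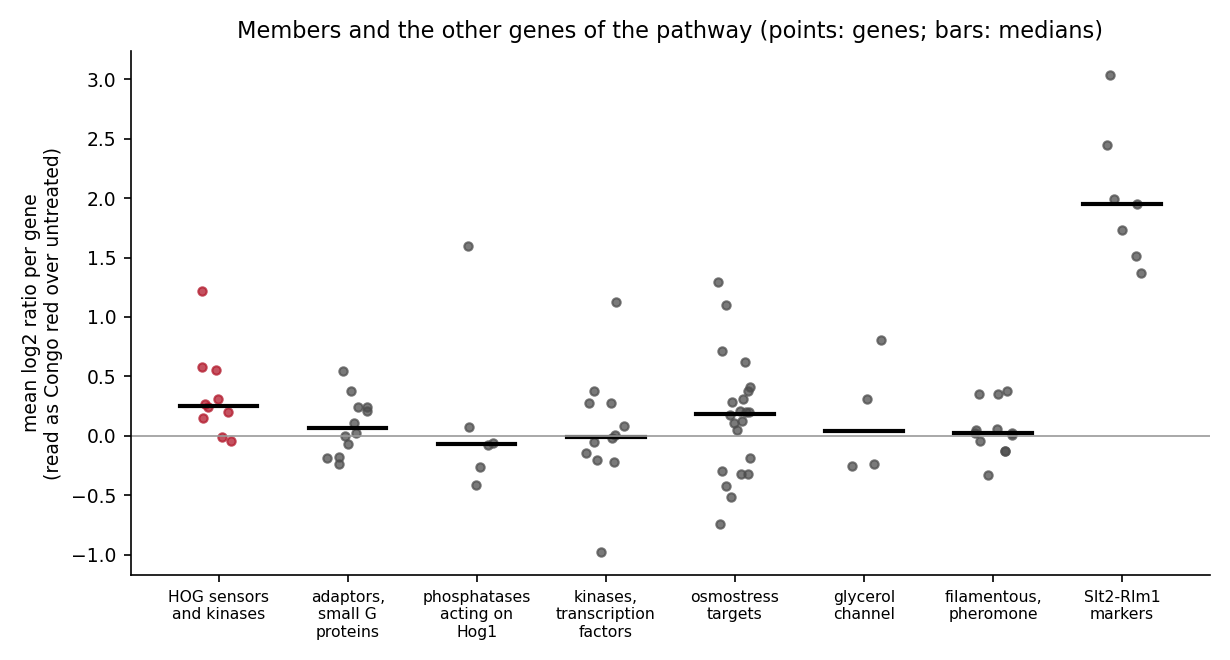
Mean log2 ratio per gene (read as Congo red over untreated) for the 10 HOG sensors and kinases in red and for the tested genes of the other lists in grey, with black bars for medians. The Slt2-Rlm1 markers lie above 1.3. The medians of the remaining lists lie between -0.07 and 0.19, and that of the 10 genes is 0.25.

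The glycerol channel list had 4 genes, of which 0 passed the limma threshold. FPS1, the glycerol channel that closes under high osmolarity, was at -0.34, -0.13, -0.15 and -0.31, below 0 on each array, with a mean of -0.23 ± 0.13 (SE, n = 4, limma adjusted p = 0.71). ASK10, a regulator that opens Fps1, was at 0.93, 0.72, 0.74 and 0.85, above 0 on each array and nearly even. Its mean was 0.81 ± 0.13 (SE, n = 4), with a limma adjusted p = 0.24 that did not pass.

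Kinases and factors of the filamentous growth and pheromone pathways, which share Ste11 with the Sho1 branch, had a median of 0.02. Of 12 tested, 8 means were above 0 and 4 below, against 48% above 0 among all tested genes. None of the 12 passed the limma threshold. KSS1, the MAP kinase of filamentous growth, was at 0.35 ± 0.18, STE5, the pheromone pathway scaffold, at 0.35 ± 0.19, and STE4, a G protein subunit, at -0.33 ± 0.22 (SE, n = 4, limma adjusted p from 0.70 to 0.74). By contrast the Slt2-Rlm1 markers, which were used to read the direction and are no independent evidence of it, had a median of 1.95. Of 7 tested, NCW2 at 3.04 ± 0.18 and PST1 at 1.95 ± 0.14 rose (SE, n = 4, limma adjusted p = 0.036 and 0.045). Both calls were lost when any 1 array was left out, where 0 of all tested genes passed. The marker median then ran from 1.86 to 2.15. CWP1, a wall mannoprotein, was at 2.45 ± 0.20 (limma adjusted p = 0.062).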

How the data were processed

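The deposited file holds log2 ratios of the 2 channels for 12800 spots on 4 arrays. That unit was read from the deposited values, which are signed and reach 16.6, a ratio of 100000. Whether so round a ratio was measured or set as a limit was not tested. For dyes, ratio direction, background correction and any normalization by the authors, the method is not given in the sources used here. The arrays had deposited medians of 0.31, 0.02, -0.46 and 0.37, and 6.79%, 9.30%, 3.93% and 1.67% of spots were blank. Array groups and channels came from the labels.

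Spots were named through the platform annotation, which gave 11138 spots exactly 1 symbol and left 1662 without one, and 0 had several. Gene numbers matched 11128 of the named spots in the RefSeq gene table, and 0 symbols changed. The median of each array was subtracted, and the spots of a gene were averaged. Genes measured on 3 or more arrays entered limma 3.58.1 (R 4.3.3, lmFit and eBayes, two-sided against 0, Benjamini-Hochberg over all genes, threshold 0.05). A second fit added the channel term. SE stands for the moderated standard error from limma. Pairs of genes were compared by an exact test over the 16 sign patterns of 4 arrays. The fits were also run on simulated data with known shifts and errors drawn independently for each array. The correlation seen between arrays of the same channel assignment was not simulated.

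The 10 genes and the lists were chosen with earlier results of these data known. Named list genes were the 3 with the smallest p of each list (2 for the glycerol channel list) and those past the threshold. Alternatives were other centring and scaling, a channel term, other array minimums, single spots, robust eBayes and single arrays left out, for which genes needed values on 2 of the remaining arrays. Omitting gene values whose spots differed by more than 1 log2 unit, and centring within runs of 400 spots, were added after seeing the data. Planned sequence searches were not run, and no coordinates are given because no build is named for the array.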

Additional observations from a re-analysis of the deposited data

Results flagged for a closer look

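Among 39 named genes with values on all 4 arrays, 5 had a single array far from the other arrays, where chance flags about 1 in 20, and 0 of these were among the 10 HOG sensors and kinases. TPS2 stood at 1.504 on array 2, against 0.92 to 1.00 on the others, and its spots there lay 1.52 apart. CWP1 stood at 3.06 on array 4, against 2.19 to 2.31 on the others. GPD1 stood at 0.51 on array 4, against 0.31 to 0.35. Among the chromosomal neighbours, RSA4 stood at 0.25 on array 2, against -0.05 to -0.04, and EAT1 at -1.73 on array 2, against 0.16 to 0.20. SLN1, with 3 values, was not looked at by this criterion.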

How the results depend on the processing

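None of the 10 HOG genes passed the limma threshold under any of the 15 alternatives run, where the lowest limma adjusted p was 0.25. Hardly any gene passed there. Over all tested genes, 0 passed with scaled arrays, quantile normalization, the channel term, centring within runs of spots or any array left out. In the other alternatives 4 to 11 genes passed, so this count says little about the 10 genes. At an unadjusted limma p under 0.05 there were 2 of the 10 (SSK22 and MSB2), beside 7.74% of all genes. There was 1 without centring (SLN1, beside 5.72%), 3 with the first spot (SLN1, SSK22 and MSB2, beside 7.76%) and 5 with centring within runs of spots (SSK22, MSB2, HKR1, SHO1 and PBS2, beside 8.53%). With single arrays left out there were 1 to 2, beside 4.23% to 8.87%. The median of the 10 means ran from 0.19 to 0.40. Means of 8 genes kept their sign throughout, with SSK22 from 0.51 to 0.67 and MSB2 from 0.47 to 0.67. SSK1 turned to 0.017 without centring and 0.27 with its second spot, and ran from -0.62 to 0.46 with single arrays left out. SSK2 turned to 0.049 without centring, 0.012 with scaled arrays, 0.013 with quantile normalization, 0.032 with its first spot and 0.049 with centring within runs, and ran from -0.094 to 0.12 with single arrays left out. The channel term of SSK1 turned to -0.055 without centring and -0.16 with quantile normalization. The cause of these turns was not tested. Of the Slt2-Rlm1 markers, 0 passed with scaled arrays, 0 with quantile normalization and 0 with any array left out. No paired analysis was possible because the arrays form 1 group and each already compares treated with untreated RNA. Signal strengths were not used here, so dim spots could not be told from bright ones.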
